A study of Mus musculus with 21 samples.

Results

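The Myc-driven ribosome biogenesis genes are a named set of 39 mouse genes that serve the nucleolus, the processing of ribosomal RNA and polyamine synthesis. They were chosen by name from what is known of them, at a time when earlier results of these data were known. Each was looked up by its Ensembl identifier in a table of 28987 identifiers. Of the 39, 38 were found and are described here, and Noc2l was not analysed here for expression. The series holds 21 RNA libraries, all of cells that flow cytometry had separated from the bone marrow of mice. In 6 of them the cells were multipotent progenitors (MPP, sorted as MPP3 and MPP4), and in 15 they were long-term haematopoietic stem cells (LT-HSC), from which progenitors derive. Batch 1 held MPP and LT-HSC, each from VaviCre+Rxrabfl/fl knockouts, in which Cre recombinase under the blood-wide Vav1 promoter meets floxed alleles of the retinoid X receptors Rxra and Rxrb, and from Rxrabfl/fl floxed controls without Cre. Each of those 4 groups had 3 libraries, and knockouts and controls of batch 1 thus differed by Cre as well as by the receptors. Batch 2 held LT-HSC only, with 3 libraries each labelled Vav1Cre+Rxrabfl/fl Myclfl/+, Vav1Cre+Rxrabfl/fl and Vav1Cre+WT, the last being Cre controls with no floxed allele. The added floxed allele is written Mycl in the titles and Myc in the descriptions, and it is called the Myc allele here. The protocol speaks of pooled animals, while the descriptions carry codes that could name single animals, and which holds for each library is not known here. The labels used here give no age.

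Ribosomes are built in the nucleolus. RNA polymerase I transcribes a long precursor RNA, small nucleolar ribonucleoproteins guide its chemical modification, and assembly factors cut and fold it into the small and the large subunit. The transcription factor Myc, which binds DNA as a pair with Max at E-box motifs such as CACGTG, is known to raise the transcription of many of these genes in growing cells. Stem cells at rest make little protein, and their progenitors make more.

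The motif bound by Myc with Max was looked for in the promoters. CACGTG, which reads the same on both strands, was found in the window of 7 of 33 members with a RefSeq promoter (21.2%), and in 2187 of 27025 genes with a window of the same 300 bases, 250 before the start and 50 after it (8.09%). The members with the motif were Pes1, Ltv1, Wdr43, Imp4, Nop2, Tsr1 and Utp20. Windows for Rrs1, Bop1, Rrp12, Fbl, Srm and Npm1 were not in the table used. The promoters of Pes1, Ltv1 and Wdr43 are shown because these genes are among the members with the lowest adjusted p between MPP and LT-HSC knockouts below. Of the other members with the motif, Nop2, Tsr1 and Utp20 also rose there, and Imp4 did not pass. They come from RefSeq on GRCm38.p6, the assembly that mm10 names, and lie at chr11:3963725-3964024 on the + strand, chr10:13193088-13193387 on the - strand and chr17:71615965-71616264 on the + strand. The motif is in capitals, and it starts at base 253 of the window in Pes1, 279 in Ltv1 and 268 in Wdr43, in each case shortly past the annotated start.
Pes1: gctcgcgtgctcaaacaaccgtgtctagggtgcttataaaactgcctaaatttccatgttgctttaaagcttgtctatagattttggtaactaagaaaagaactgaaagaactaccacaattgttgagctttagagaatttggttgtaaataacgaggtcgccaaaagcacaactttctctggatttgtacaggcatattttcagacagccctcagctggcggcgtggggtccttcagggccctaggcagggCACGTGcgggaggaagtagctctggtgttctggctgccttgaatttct
Ltv1: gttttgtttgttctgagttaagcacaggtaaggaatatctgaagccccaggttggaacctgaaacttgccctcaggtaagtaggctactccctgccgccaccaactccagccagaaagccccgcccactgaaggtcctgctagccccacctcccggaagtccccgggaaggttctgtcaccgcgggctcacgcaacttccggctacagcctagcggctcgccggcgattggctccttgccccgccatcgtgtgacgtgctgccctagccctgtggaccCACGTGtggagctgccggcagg
Wdr43: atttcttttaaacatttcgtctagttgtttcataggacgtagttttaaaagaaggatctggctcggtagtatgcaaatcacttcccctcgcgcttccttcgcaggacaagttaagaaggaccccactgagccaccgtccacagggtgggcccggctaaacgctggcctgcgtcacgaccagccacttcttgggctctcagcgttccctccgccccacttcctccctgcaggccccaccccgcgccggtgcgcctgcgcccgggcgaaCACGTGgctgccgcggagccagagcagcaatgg
A match describes these letters only and is no evidence of binding.

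Values are TPM (transcript abundance per transcript length, on a fixed total per library) as deposited by the authors, with the read depth behind them unknown. A single identifier without a symbol took 10.6 to 51.8% of the fixed total of a library, the most in LT-HSC floxed control replicate 2, so each library was divided by a size factor of 0.661 to 1.46 and the result is called scaled TPM. The labelled cell types went with their markers: in MPP against LT-HSC the 9 LT-HSC markers fell and the 8 MPP markers rose, both among knockouts and among floxed controls. An exon-skipping junction of Rxra had a spliced-in fraction (PSI) of 0.938 in the 1 LT-HSC knockout library of batch 1 with a value and of 1 and 0.5 in the 2 MPP knockout libraries with a value, against 0 to 0.1 in floxed controls. In batch 2 it was 0.647, 0 and 1 in the libraries with the Myc allele, 0, 0.0127 and 0 in those labelled knockout and 0 in each Cre control, so the knockouts of batch 2 are called libraries labelled knockout. Rxrb lay at 6.76 to 9.17 scaled TPM in LT-HSC knockouts of batch 1 and at 11.4 to 15.1 in their floxed controls. In batch 2 it lay at 5.80 to 10.7 scaled TPM in the libraries with the Myc allele, 10.2 to 14.6 in those labelled knockout and 13.1 to 14.95 in Cre controls, the last 2 groups overlapping.

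The members spanned a wide range of levels. Npm1 was the most abundant, at 696 to 1689.7 scaled TPM, and its RNA made up 38.8 to 48.00% of the summed level of the 38 genes. Ncl, Nop56, Fbl, Nop58 and Gar1 followed, with medians over all libraries of 104 to 179 scaled TPM, and Rrp12 was lowest with a median of 5.74 scaled TPM. In batch 1 most members shared a group order. On scaled TPM the group median was highest in MPP knockouts for 25 of 38 members and lowest in LT-HSC knockouts for 32, while on deposited TPM it was highest in MPP knockouts for 34 and lowest in LT-HSC floxed controls for 28 (in LT-HSC knockouts for 9). On scaled TPM MPP floxed controls had the highest median for 9 members and LT-HSC floxed controls for 4. In batch 2 the libraries with the Myc allele had the lowest median for 22 members, those labelled knockout for 7 and Cre controls for 9. The lowest single library of batch 2 was one with the Myc allele for 31 members. The highest median was more evenly placed, in the libraries with the Myc allele for 9 members, in those labelled knockout for 13 and in Cre controls for 16. Replicates varied unequally. The median coefficient of variation over the members was 8.03% in MPP knockouts, 11.1% in MPP floxed controls, 13.97% in LT-HSC knockouts and 20.1% in LT-HSC floxed controls, and in batch 2 it was 28.2% with the Myc allele, 15.9% in libraries labelled knockout and 10.4% in Cre controls. One library set much of the spread among LT-HSC floxed controls: replicate 3 was the highest of the 3 for 32 of 38 members. Among LT-HSC knockouts replicate 3 was the lowest for 31 members.

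**Figure D1:**
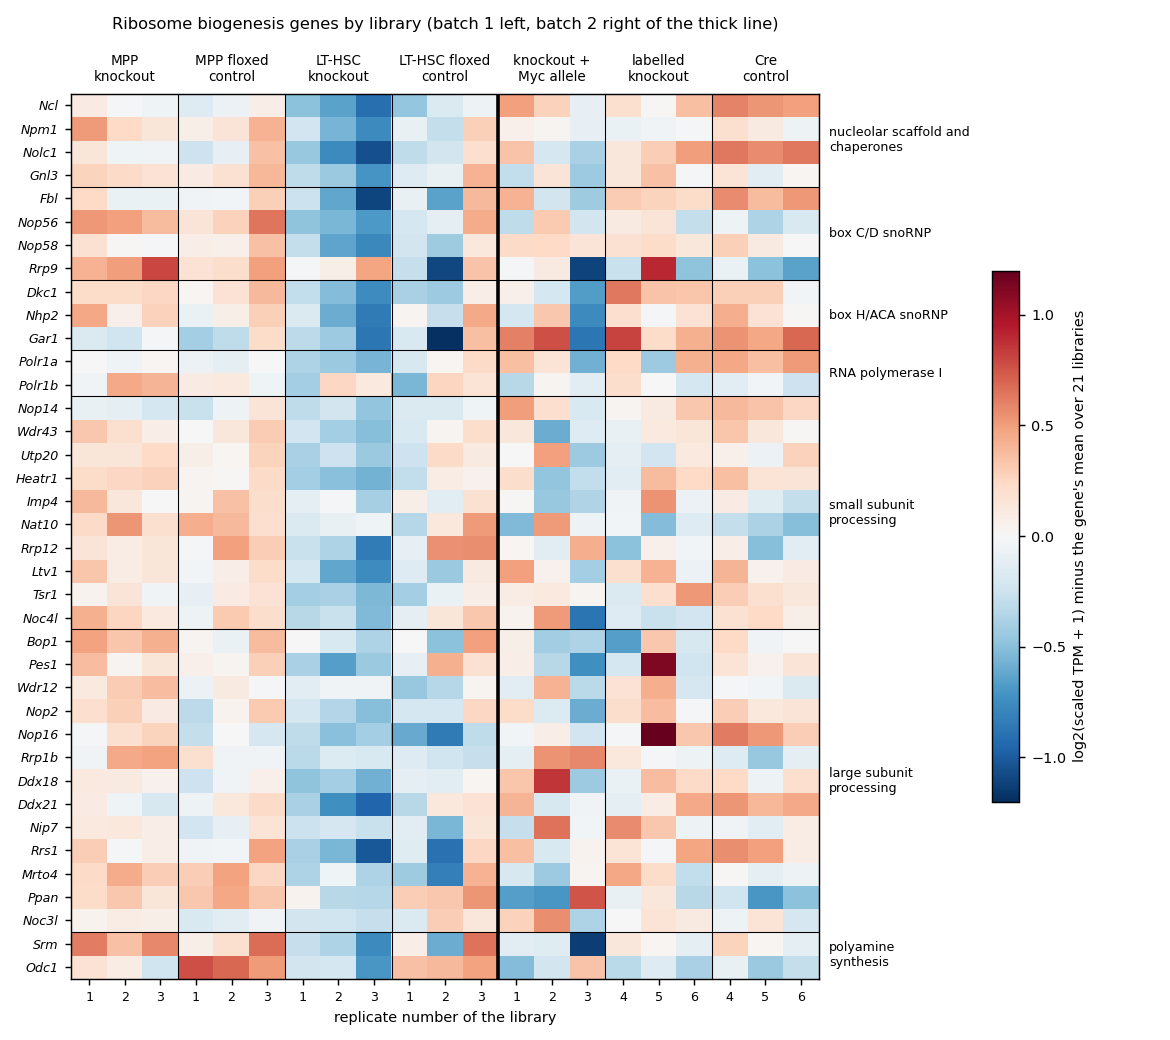
Level of each of the 38 genes (one line each, grouped by role) in each of the 21 libraries (columns, by group and replicate number), as log2(scaled TPM + 1) minus the gene's mean over all libraries, with colours ending at 1.2 in either direction. On this scale LT-HSC knockouts of batch 1 have the lowest group median of batch 1 for 32 of 38 genes, and on deposited TPM LT-HSC floxed controls have it for 28.

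Among knockouts, ribosome biogenesis genes were higher in MPP than in LT-HSC. Of 38 members, 24 rose and 0 fell at an adjusted p under 0.05 (limma over all genes tested, Benjamini-Hochberg), where 12.1% of all 14568 genes tested were called higher, 11.6% lower and 23.7% in either direction. On deposited TPM 1 passed, Nop56, and 37 of 38 members were above 0, where 592 of all genes were called higher and 2297 lower. Another 9 members were higher at an unadjusted p under 0.05 only, a count given without the share of all genes at that value. The median log2 change was 0.58 over the members and 0.03 over all genes tested. All 3 MPP libraries lay above all 3 LT-HSC libraries for 35 members, an order that 23.8% of all genes had, and for 0 members below them, where 20.3% of all genes lay. By role, those that rose were 4 of 4 nucleolar scaffold and chaperone genes, 2 of 4 box C/D and 2 of 3 box H/ACA genes, 1 of 2 RNA polymerase I genes, 7 of 10 small subunit factors, 7 of 13 large subunit factors and 1 of 2 polyamine enzymes. In bulk libraries such as these, fewer cells of a type that holds an RNA and less of that RNA per cell cannot be told apart.

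**Figure D2:**
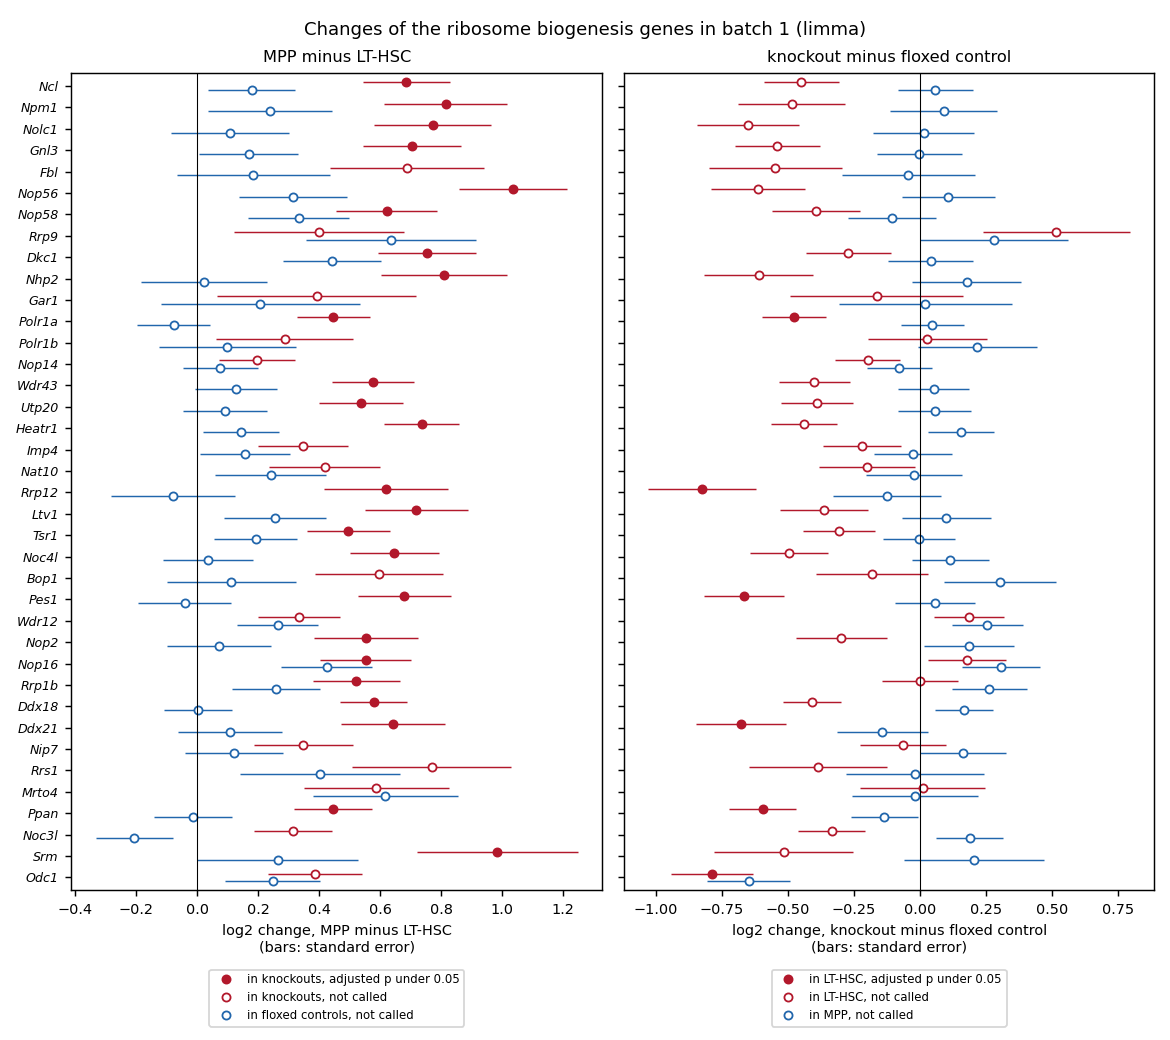
Log2 change of each of the 38 genes with its standard error (horizontal bars) in batch 1, on scaled TPM: MPP minus LT-HSC on the left, in knockouts (red) and floxed controls (blue), and knockout minus floxed control on the right, in LT-HSC (red) and MPP (blue), filled where the adjusted p was under 0.05. On the left 24 red points and no blue point are filled, and on the right 6 red points below 0 and no blue point, of which 0 passed and 2 lay above 0 on deposited TPM.

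Nucleolar scaffold and chaperone genes rose without exception among knockouts. Ncl, which encodes nucleolin, an RNA-binding protein of early ribosomal RNA transcription and processing (ENSMUSG00000026234, chromosome 1, 86344719 to 86359455 on GRCm38.p6), stood at 194, 179 and 175 scaled TPM in MPP knockouts, 162, 173 and 191 in MPP floxed controls, 129, 116 and 96.4 in LT-HSC knockouts and 132, 161 and 174 in LT-HSC floxed controls. Every MPP knockout library lay above every LT-HSC knockout library, while the floxed controls of both cell types overlapped. Between knockouts Ncl rose (log2 change 0.69 ± 0.14 (SE), adjusted p = 0.00396). Npm1, for nucleophosmin, a nucleolar chaperone that is often mutated in myeloid leukaemia, stood at 1689.7, 1401 and 1312 scaled TPM in MPP knockouts, 1240.5, 1315 and 1578 in MPP floxed controls, 1013, 807 and 696 in LT-HSC knockouts and 1115, 969 and 1449 in LT-HSC floxed controls. The 3 LT-HSC knockouts included the lowest levels of all, and replicate 1 reached the range of the floxed controls (log2 change 0.82 ± 0.20 (SE), adjusted p = 0.0113). Without LT-HSC knockout replicate 3 or MPP knockout replicate 1 the adjusted p of Npm1 was 0.0570 or 0.0505. Gnl3, for nucleostemin, a nucleolar GTPase, had 67.4, 65.6 and 62.9 scaled TPM in MPP knockouts, against 45.1, 40.8 and 33.8 in LT-HSC knockouts. These did not overlap (log2 change 0.71 ± 0.16 (SE), adjusted p = 0.00693). Nolc1, a chaperone of small nucleolar ribonucleoproteins, rose by a log2 change of 0.77.

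Nop56 had the largest log2 change of the members between MPP and LT-HSC knockouts. It is a core protein of the box C/D particles, which guide methylation of ribosomal RNA (ENSMUSG00000027405, chromosome 2, 130274367 to 130279313 on GRCm38.p6), and it stood at 261, 256 and 237 scaled TPM in MPP knockouts, 202, 220.0 and 284 in MPP floxed controls, 129.8, 124 and 112 in LT-HSC knockouts and 158, 167 and 248 in LT-HSC floxed controls. MPP knockouts were about as high as the highest LT-HSC floxed control, replicate 3, and LT-HSC knockouts were below all others (log2 change 1.04 ± 0.18 (SE), adjusted p = 0.00108). Its change kept an adjusted p under 0.05 in 17 of 17 alternative fits, the deposited TPM among them. Fbl, the methyltransferase fibrillarin of the same particles, stood at 136, 109 and 109 scaled TPM in MPP knockouts, 112, 113 and 141 in MPP floxed controls, 96.03, 74.3 and 53.02 in LT-HSC knockouts and 108, 73.3 and 151 in LT-HSC floxed controls. The knockout cell types did not overlap, but the replicates of Fbl were spread and it did not pass the test without the pairing (log2 change 0.69 ± 0.25 (SE), adjusted p = 0.0657). Nop58, the partner of Nop56, rose by a log2 change of 0.62, while Rrp9, a protein of the box C/D particle that processes the precursor, overlapped between knockouts (log2 change 0.40, adjusted p = 0.336). In the box H/ACA particles, which guide pseudouridine formation, Dkc1 had 78.7, 78.7 and 80.3 scaled TPM in MPP knockouts, against 54.6, 46.7 and 39.6 in LT-HSC knockouts. Dkc1 encodes the pseudouridine synthase dyskerin and did not overlap (log2 change 0.75 ± 0.16 (SE), adjusted p = 0.00458). Its partner Nhp2 rose by a log2 change of 0.81, and Gar1 varied among LT-HSC knockouts from 57.9 to 85.5 scaled TPM and did not pass (log2 change 0.39, adjusted p = 0.427).

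The RNA polymerase I subunits differed. Polr1a, the largest subunit, stood at 14.6, 14.2 and 15.01 scaled TPM in MPP knockouts, 14.02, 13.5 and 14.8 in MPP floxed controls, 11.2, 10.5 and 9.71 in LT-HSC knockouts and 12.8, 14.99 and 17.4 in LT-HSC floxed controls. Its LT-HSC knockouts were the lowest group and overlapped with no other (log2 change 0.45 ± 0.12 (SE), adjusted p = 0.0176 for MPP against LT-HSC knockouts). That call rested on single libraries, with an adjusted p of 0.0501 to 0.0756 without LT-HSC knockout replicate 2 or 3 or MPP knockout replicate 1 or 3. Polr1b, which forms the active centre with it, stood at 12.5, 18.2 and 17.6 scaled TPM in MPP knockouts, 14.01, 14.2 and 12.5 in MPP floxed controls, 9.53, 15.7 and 14.2 in LT-HSC knockouts and 8.59, 15.7 and 14.7 in LT-HSC floxed controls. All 4 groups overlapped, and no change of Polr1b passed a test (log2 change 0.29 ± 0.23 between knockouts, adjusted p = 0.397).

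Small subunit factors that rose among knockouts were Heatr1, Noc4l, Wdr43, Ltv1, Utp20, Tsr1 and Rrp12. Heatr1, a large scaffold of the early small subunit particle that is also tied to RNA polymerase I, stood at 16.7, 16.98 and 17.3 scaled TPM in MPP knockouts, 14.6, 14.3 and 16.8 in MPP floxed controls, 10.4, 9.75 and 9.27 in LT-HSC knockouts and 11.3, 15.1 and 14.7 in LT-HSC floxed controls. Its MPP knockouts were tight and well above the LT-HSC knockouts, and it had the lowest adjusted p of the members (log2 change 0.74 ± 0.12 (SE), adjusted p = 0.00102). Wdr43, of the same early particle and with CACGTG in its promoter above, had 45.5, 41.4 and 38.1 scaled TPM in MPP knockouts, against 30.6, 27.1 and 25.1 in LT-HSC knockouts. No library of the 2 groups overlapped (log2 change 0.58 ± 0.13 (SE), adjusted p = 0.00776). Ltv1, a late factor of small subunit maturation whose promoter is also shown above, had 32.01, 26.7 and 27.9 scaled TPM in MPP knockouts, against 21.6, 15.99 and 14.5 in LT-HSC knockouts. LT-HSC knockout replicate 1 was the highest of its group and still below every MPP knockout (log2 change 0.72 ± 0.17 (SE), adjusted p = 0.00792). Noc4l, a nucleolar factor of the small subunit, had 23.3, 20.6 and 18.6 scaled TPM in MPP knockouts, against 13.3, 14.01 and 11.5 in LT-HSC knockouts, with no overlap (log2 change 0.65 ± 0.15 (SE), adjusted p = 0.00678). Those that did not pass were Nop14, Imp4 and Nat10, with log2 changes of 0.20, 0.35 and 0.42. Nop14 had the smallest change of all members.

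Large subunit factors that rose were Ddx18, Pes1, Ddx21, Nop16, Rrp1b, Ppan and Nop2. The helicase Ddx18 had 31.4, 31.1 and 29.8 scaled TPM in MPP knockouts, against 20.3, 21.5 and 19.02 in LT-HSC knockouts, 2 tight groups far apart for their spread (log2 change 0.58 ± 0.11 (SE), adjusted p = 0.00234). Pes1, the scaffold of the complex it forms with Bop1 and Wdr12 (ENSMUSG00000020430, chromosome 11, 3963975 to 3980004 on GRCm38.p6, promoter shown above), stood at 15.3, 11.9 and 12.97 scaled TPM in MPP knockouts, 12.1, 11.9 and 14.4 in MPP floxed controls, 8.66, 6.99 and 8.26 in LT-HSC knockouts and 10.8, 15.9 and 13.3 in LT-HSC floxed controls. LT-HSC knockouts were below every other library of batch 1 (log2 change 0.68 ± 0.15 (SE), adjusted p = 0.00616 for MPP against LT-HSC knockouts). The partners of Pes1 did not pass. Bop1 had 14.9, 13.3 and 14.3 scaled TPM in MPP knockouts, against 10.4, 9.00 and 7.82 in LT-HSC knockouts (adjusted p = 0.0583), and Wdr12 had 25.9, 29.6 and 31.00, against 21.7, 23.02 and 23.1 (adjusted p = 0.0915). Both were without overlap. The other large subunit factors that did not pass were Rrs1, Noc3l, Mrto4 and Nip7, with log2 changes of 0.31 to 0.77.

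Of the polyamine enzymes Srm rose and Odc1 did not pass. Srm, spermidine synthase and a known Myc target, stood at 92.5, 76.6 and 89.9 scaled TPM in MPP knockouts, 63.1, 68.5 and 96.02 in MPP floxed controls, 49.2, 46.3 and 34.8 in LT-HSC knockouts and 63.6, 39.3 and 94.9 in LT-HSC floxed controls. MPP knockouts were above LT-HSC knockouts throughout, and LT-HSC floxed controls were spread from 39.3 to 94.9 and overlapped with both (log2 change 0.98 ± 0.26 (SE), adjusted p = 0.0170). Leaving out LT-HSC knockout replicate 3, MPP knockout replicate 1 or MPP knockout replicate 3 gave Srm an adjusted p of 0.0780, 0.0585 or 0.0540. Odc1, ornithine decarboxylase, the rate-limiting enzyme of polyamine synthesis (ENSMUSG00000011179, chromosome 12, 17544808 to 17551502 on GRCm38.p6), stood at 103, 97.00 and 77.3 scaled TPM in MPP knockouts, 156, 148 and 130.4 in MPP floxed controls, 78.1, 78.7 and 55.8 in LT-HSC knockouts and 117, 120.2 and 128 in LT-HSC floxed controls. It was highest in MPP floxed controls, every knockout library lay below every floxed control of its cell type, and MPP knockouts overlapped with LT-HSC knockouts (log2 change 0.39 ± 0.16 (SE), adjusted p = 0.0928).

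Without LT-HSC knockout replicate 3 the count of members that rose between knockouts was 11, and without MPP knockout replicate 1 it was 14, where 7.06% and 7.8% of all genes were called higher in those fits. With the replicate number as a block 28 passed, where 15.2% of all genes were called higher. The 4 added there were Bop1, Rrs1, Fbl and Odc1, with adjusted p-values of 0.0111 to 0.0277. The 10 members with the lowest adjusted p (Heatr1, Nop56, Ddx18, Ncl, Dkc1, Pes1, Noc4l, Gnl3, Wdr43 and Ltv1) passed in all 6 fits that left out 1 library. Cell cycle markers moved with these genes. All 12 S phase markers and 11 of 12 G2 and M markers were called higher in MPP knockouts, with summed S phase levels of 825 to 960 scaled TPM in MPP knockouts and 349 to 553 in LT-HSC knockouts. Summed neutrophil markers were 69.7 to 481 scaled TPM in MPP knockouts and 105 to 931 in LT-HSC knockouts, where replicate 3 was highest, and 0 of 6 tested were called. Summed B cell markers, mostly Igkc, were 607 to 6033 scaled TPM in MPP knockouts and 251 to 782 in LT-HSC knockouts, with 3 of 6 tested called higher. Monocyte, macrophage and dendritic markers were called higher for 5 of 6 tested. No marker of these lists was at 0 in all libraries of either group. The part of these cells or of the cell cycle in the result was not tested.

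Among floxed controls the same comparison of cell types gave no called member. With limma 0 of 38 passed, where 12.1% of all genes were called higher, 12.2% lower and 24.3% in either direction, and 4 members were higher and 0 lower at an unadjusted p under 0.05 (median log2 change 0.16 over the members and 0.02 over all genes). Those 4 were Dkc1 (log2 change 0.44 ± 0.16, adjusted p = 0.0641), Mrto4 (0.62 ± 0.24, adjusted p = 0.0785), Rrp9 (0.64 ± 0.28, adjusted p = 0.119) and Nop16. Nop56 had a log2 change of 0.31, Srm of 0.26, Odc1 of 0.25, Npm1 of 0.24, Ncl of 0.18 and Fbl of 0.18, none of them past the test. Noc3l (-0.21), Rrp12 (-0.08) and Polr1a (-0.078) were at the low end. All MPP libraries lay above all LT-HSC libraries for 3 members, an order that 19.8% of all genes had, and below them for 0, where 18% of all genes lay. MPP and LT-HSC libraries with the same number carry the same animal code in the labels, and with that number as a block 4 members passed, namely Dkc1, Rrp9, Nop56 and Nop58, all higher, where 14.4% of all genes were called higher in that fit. Without LT-HSC floxed control replicate 3, the library in which most members were highest, 8 passed, all higher: Mrto4, Rrp9, Dkc1, Nop16, Wdr12, Nop56, Nop58 and Nat10. In that fit 14.7% of all genes were called higher. That library also had the most erythroid marker RNA, 465 scaled TPM against 244 and 249 in the other LT-HSC floxed controls. Of the S phase markers 2 of 12 were called higher and of the G2 and M markers 4 of 12. Summed B cell markers were 2054 to 11178 scaled TPM in MPP floxed controls and 16.2 to 220 in LT-HSC floxed controls, with 3 of 6 tested called higher. Erythroid markers were called lower for 8 of 8, monocyte, macrophage and dendritic markers higher for 5 of 6 tested, and neutrophil markers for 0 of 6. The part of these cells or of the cell cycle was not tested.

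In LT-HSC of batch 1 the members lay lower in knockouts than in floxed controls relative to other genes. Over the members the median log2 change on scaled TPM was -0.39, and over all genes tested it was -0.02. In this comparison 6 members fell and 0 rose, where 2.7% of all genes were called lower, 2.35% higher and 5.06% in either direction. At an unadjusted p under 0.05, 22 members were lower, a count given without the share of all genes at that value. All knockouts lay below all floxed controls for 17 members, an order that 13.2% of all genes had, and above them for 0, where 12.3% of all genes lay. The absolute direction depends on the scale: on deposited TPM 0 members fell and 4 rose (Wdr12, Nop16, Rrp9 and Rrp1b). On that scale 6614 of all genes were called higher and 86 lower, and the median of all genes was 0.52. The 6 that fell on scaled TPM were Odc1, Ppan, Pes1, Rrp12, Ddx21 and Polr1a.

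Odc1 was the most stable of these 6 when single libraries were left out. Its scaled values above did not overlap between LT-HSC knockouts and floxed controls (log2 change -0.79 ± 0.16 (SE), adjusted p = 0.0233). It remained lower past the threshold in 5 of 6 fits that left out 1 library, failing without LT-HSC knockout replicate 3 (adjusted p = 0.118). On deposited TPM the groups overlapped and Odc1 did not pass with limma (log2 change -0.17, adjusted p = 0.497). Ppan, a large subunit factor, had 39.3, 30.1 and 29.9 scaled TPM in LT-HSC knockouts, against 47.2, 47.97 and 55.7 in LT-HSC floxed controls. Replicate 1 of the knockouts was highest and still below the controls (log2 change -0.60 ± 0.13 (SE), adjusted p = 0.0300), though on deposited TPM the log2 change of Ppan was 0.018. Pes1 was below the floxed controls in each knockout library (log2 change -0.67 ± 0.15 (SE), adjusted p = 0.0335). Rrp12, which takes part in export of both subunits, had 4.51, 4.14 and 2.71 scaled TPM in LT-HSC knockouts, against 5.19, 8.71 and 8.73 in LT-HSC floxed controls. The groups came close but did not overlap (log2 change -0.83 ± 0.20 (SE), adjusted p = 0.0415). Ddx21, a nucleolar helicase that senses transcription by RNA polymerases, had 23.8, 18.5 and 15.8 scaled TPM in LT-HSC knockouts, against 24.8, 34.3 and 35.5 in LT-HSC floxed controls. Floxed control replicate 1 was just above knockout replicate 1 (log2 change -0.68 ± 0.17 (SE), adjusted p = 0.0433). Polr1a fell on scaled TPM (log2 change -0.48 ± 0.12 (SE), adjusted p = 0.0438) and had a log2 change of 0.11 on deposited TPM.

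Of the other genes named throughout, these did not pass: Nop56 (log2 change -0.61, adjusted p = 0.0610), Fbl (-0.55, 0.181), Srm (-0.52, 0.225), Npm1 (-0.49, 0.147) and Ncl (-0.45, 0.0795). Rrp9 (0.52), Wdr12 (0.19) and Nop16 (0.18) had the highest log2 changes, and Polr1b stood at 0.028. Calls in this comparison turned on single libraries. Without LT-HSC knockout replicate 3, 0 members passed, without knockout replicate 2 only Odc1 passed, and without floxed control replicate 2 or 3 only Odc1 and Ppan passed, while without knockout replicate 1 or floxed control replicate 1 the count was 11 or 10, all lower. Of all genes 0.104% were called lower without knockout replicate 3, 0.457% without knockout replicate 2, 1.66% and 2.64% without floxed control replicate 2 and 3, and 5.33% and 2.63% without knockout replicate 1 and floxed control replicate 1. When the 6 libraries compared were fitted alone, 0 passed. The knockout libraries used here are also those set against MPP above, so the counts are not independent of each other. Several library traits moved with the groups. Genes with at least 1 TPM numbered 13923 to 14870 in knockouts and 12455 to 13249 in floxed controls. Summed S phase markers were 349 to 553 scaled TPM in knockouts and 561 to 802 in floxed controls (2 of 12 called lower), and summed erythroid markers were 87.2 to 180 scaled TPM in knockouts and 244 to 465 in floxed controls (6 of 8 called lower). Summed neutrophil markers were 105 to 931 scaled TPM in knockouts and 33.4 to 84.9 in floxed controls, with 0 of 6 tested called. Summed B cell markers were 251 to 782 scaled TPM in knockouts and 16.2 to 220 in floxed controls, without overlap and with 0 of 6 tested called, and summed monocyte, macrophage and dendritic markers were 27.2 to 37.1 scaled TPM in knockouts and 15.2 to 21.01 in floxed controls (1 of 6 tested called higher). Of the LT-HSC markers 3 of 9 were called higher, and of the MPP markers 2 of 8 lower. The part of these traits in the result was not tested.

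How the libraries were put on one scale moved all genes together. Deposited TPM, leaving out the top identifier and other size factors each multiply a library by a constant, so the place of the members relative to all genes is nearly fixed under them, and only quantile normalization could move it freely. For knockout against floxed control LT-HSC, the median log2 change of the members minus that of all genes was -0.38 with size factors over 21 libraries, -0.36 with size factors from genes at 20 TPM or more, -0.38 with the most abundant identifier left out, -0.28 with quantile normalization and -0.31 on deposited TPM. In each of these 31 or 32 of 38 members lay below the median of all genes. For MPP against LT-HSC knockouts the same difference was 0.56, 0.53, 0.56, 0.42 and 0.53, and 38 of 38 members lay above the median of all genes in each, although the members called numbered 15 with the genes at 20 TPM or more, 15 with the top identifier left out and 1 (Nop56) on deposited TPM. For MPP against LT-HSC floxed controls it was 0.10 to 0.18, with 29 to 34 members above. The scale also moved the split of all genes called. For knockout against floxed control LT-HSC, 343 genes were called higher and 394 lower on scaled TPM, 6614 and 86 on deposited TPM, 1840 and 164 with the most abundant identifier left out, and 653 and 159 with size factors from genes at 20 TPM or more. For MPP against LT-HSC knockouts, 1765 were called higher and 1686 lower on scaled TPM, 592 and 2297 on deposited TPM, 964 and 2609 with the most abundant identifier left out, and 944 and 2541 with the genes at 20 TPM or more. For MPP against LT-HSC floxed controls these were 1756 and 1784 on scaled TPM and 2305 and 834 on deposited TPM.

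**Figure D3:**
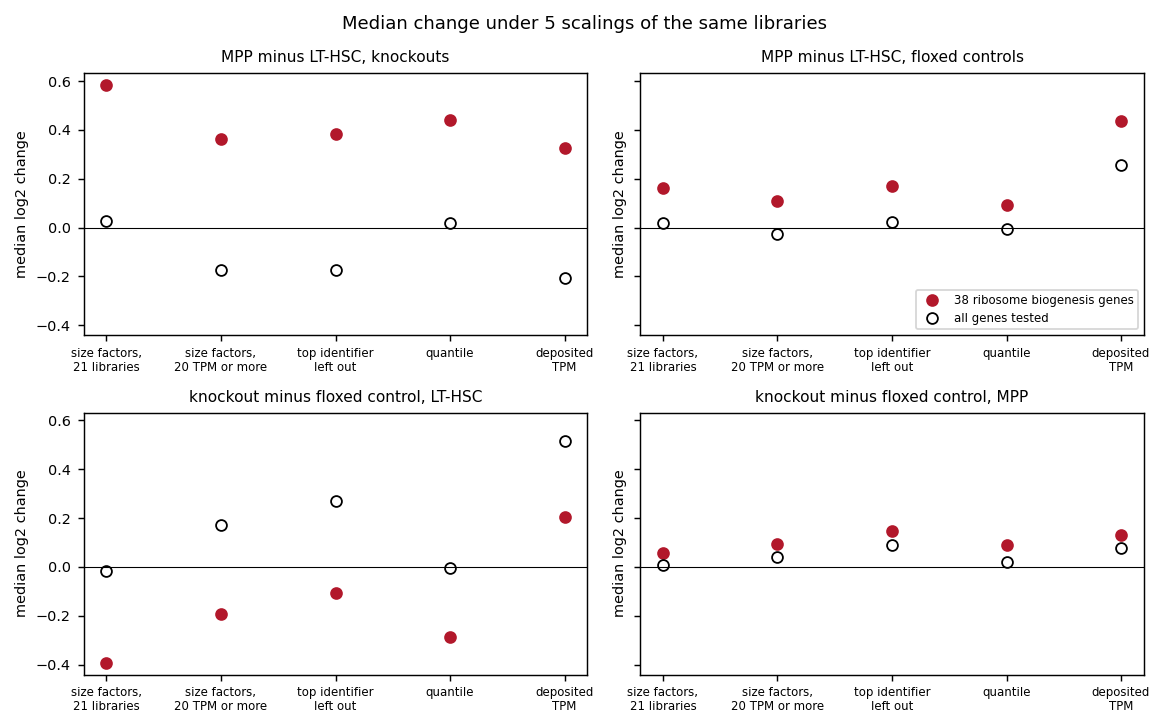
Median log2 change of the 38 genes (filled) and of all genes tested (open) under 5 ways of putting the libraries on one scale, for the 4 comparisons of batch 1. The absolute level shifts, and in knockout against floxed control LT-HSC the members' median is -0.39 on scaled TPM and 0.20 on deposited TPM, with the filled points 0.28 to 0.38 below the open ones there and 0.42 to 0.56 above them for MPP against LT-HSC knockouts, the smallest gaps being those with quantile normalization.

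In MPP no member passed the test between knockouts and floxed controls. With limma 0 of 38 passed, where 0.124% of all genes were called higher, 0.467% lower and 0.59% in either direction, and 1 member was lower and 0 higher at an unadjusted p under 0.05 (median log2 change 0.06 over the members and 0.01 over all genes). That member was Odc1, for which all knockout libraries lay below all floxed controls (log2 change -0.65 ± 0.16 (SE), adjusted p = 0.0960). An order of groups like that was found for 1 member below and 2 above, where 10% and 8.75% of all genes had it. Nop16 (log2 change 0.31), Bop1 (0.30) and Rrp9 (0.28) were at the high end, and Ppan (-0.14) and Ddx21 (-0.14) followed Odc1 at the low end. Nop56 (0.11), Srm (0.20), Npm1 (0.09), Ncl (0.058), Fbl (-0.044), Polr1a (0.047) and Polr1b (0.22) had adjusted p-values of 0.92 or more. Marker RNA differed between these groups. Summed neutrophil markers were 69.7 to 481 scaled TPM in MPP knockouts and 11.9 to 35.1 in MPP floxed controls, without overlap. Summed B cell markers were 607 to 6033 and 2054 to 11178, and 0 of 6 tested were called in either list. Of monocyte, macrophage and dendritic markers 1 of 6 tested was called higher. The part of these cells in the result was not tested.

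Whether the knockout acted differently on MPP than on LT-HSC was tested as an interaction. The knockout effect in MPP minus that in LT-HSC was above 0 for 36 of 38 members, with a median of 0.46 on the log2 scale against 0.02 over all genes. At an unadjusted p under 0.05, 16 members were above 0, a count given without the share of all genes at that value. With limma 0 of 38 passed after adjustment, and of all genes 0.00686% passed above 0, 0.0206% below 0 and 0.0275% in either direction. The 3 smallest p-values were those of Ddx18 (difference 0.58 ± 0.16, adjusted p = 0.254), Heatr1 (0.59 ± 0.18, adjusted p = 0.282) and Pes1 (0.72 ± 0.21, adjusted p = 0.282). The difference for Nop56 was 0.72, for Srm 0.72, for Npm1 0.58, for Polr1a 0.52, for Ncl 0.51, for Fbl 0.50 and for Polr1b 0.19. For Odc1, lower in knockouts of both cell types, it was 0.14 ± 0.22. On deposited TPM the median difference of the members was -0.05 and that of all genes -0.45.

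In batch 2 no member passed the test between the libraries labelled knockout and the Cre controls. With limma 0 of 38 passed and 0 were under an unadjusted p of 0.05, where 0.0074% of all genes were called higher, 0.0518% lower and 0.0592% in either direction. The median log2 change was -0.003 over the members and -0.02 over all genes, and it was -0.25 for both on deposited TPM. Nop56 stood at 147, 227 and 156 scaled TPM in the libraries with the Myc allele, 196, 203 and 149 in those labelled knockout and 174, 141 and 161 in Cre controls. All 3 groups overlapped. Ncl stood at 255, 219 and 169 scaled TPM in the libraries with the Myc allele, 208, 183 and 234 in those labelled knockout and 274, 262 and 256 in Cre controls, with each library labelled knockout below each Cre control, and it did not pass (log2 change -0.34 ± 0.18 (SE), adjusted p = 0.936). Groups were ordered so for 4 members below and 2 above, where 8.75% and 8.46% of all genes were. Single libraries stood out here. Nop16 had 21.6, 61.4 and 27.4 scaled TPM in libraries labelled knockout, Pes1 had 9.92, 26.4 and 9.70 and Rrp9 had 14.5, 33.9 and 12.4, each highest in replicate 5. Ppan (0.38), Rrp9 (0.46) and Nip7 (0.31) had the highest log2 changes and Noc4l (-0.38) and Polr1a (-0.37) the lowest, while Npm1 (-0.13), Fbl (-0.22), Srm (-0.048), Odc1 (-0.021) and Polr1b (0.13) lay between, with adjusted p-values of 0.936 or more for all of these.

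The libraries with the floxed Myc allele gave no called member either. They also differed from those labelled knockout at the receptors, so the allele and the state of the receptors cannot be told apart there. The Rxra junction had a PSI of 0.647, 0 and 1 against 0, 0.0127 and 0. Rxrb was 5.80 to 10.7 against 10.2 to 14.6 scaled TPM. Against the libraries labelled knockout 0 of 38 passed with limma, as 0% of all genes did (733 of 13521 at an unadjusted p under 0.05), and 1 member, Dkc1, was lower at an unadjusted p under 0.05. Dkc1 stood at 70.1, 58.05 and 41.9 scaled TPM in the libraries with the Myc allele, 105, 85.3 and 85.2 in those labelled knockout and 82.1, 82.3 and 65.8 in Cre controls. Every library with the Myc allele was below every library labelled knockout (log2 change -0.71 ± 0.21 (SE), adjusted p = 0.835), an order seen for 2 members, where 3.37% of all genes had it, and the opposite for 0, where 2.65% had it. Nop16 (-0.65), Pes1 (-0.55) and Srm (-0.48) were at the low end of the log2 changes and Rrp1b (0.32), Rrp12 (0.26) and Nat10 (0.21) at the high end. Nop56 (-0.065), Npm1 (0.043), Ncl (0.028), Fbl (-0.34), Odc1 (0.16), Polr1a (-0.095) and Polr1b (-0.14) were between. Over the members the median was -0.14, and over all genes -0.02.

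Set against the Cre controls, the libraries with the Myc allele again had 0 of 38 members past the test, where 0.0296% of all genes were called higher, 0.0518% lower and 0.0814% in either direction, with 1 higher and 2 lower at an unadjusted p under 0.05. The 2 lower were Nolc1, with 26.9, 18.1 and 15.8 scaled TPM in the libraries with the Myc allele, against 33.2, 31.5 and 33.1 in Cre controls (log2 change -0.69 ± 0.22 (SE), adjusted p = 0.523), and Fbl, with 154, 98.9 and 85.6, against 171, 149.6 and 165 (log2 change -0.56 ± 0.21 (SE), adjusted p = 0.523). Nolc1 did not overlap, and Fbl overlapped through replicate 1 with the Myc allele. The higher one was Rrp1b, with 27.7, 44.1 and 45.5 scaled TPM in the libraries with the Myc allele, against 26.9, 21.7 and 27.7 in Cre controls (log2 change 0.58 ± 0.22 (SE), adjusted p = 0.523). Without replicate 1 of the libraries with the Myc allele these 3 passed, Fbl and Nolc1 lower and Rrp1b higher, where 2.77% of all genes were called lower and 3.14% higher. Libraries of this group disagreed with each other: Ppan had 23.8, 23.2 and 65.1 and Gar1 162, 182 and 57.95 scaled TPM. Their summed mitochondrial genes were 17978.5, 91442 and 128636 scaled TPM in replicates 1 to 3, and the part of that trait was not tested. All libraries with the Myc allele lay below all Cre controls for 6 members and above them for 0, where 9.37% and 6.49% of all genes did. Nat10 (0.37) and Rrp12 (0.30) followed Rrp1b at the high end and Nop16 (-0.54) followed Fbl at the low end. Srm (-0.53), Polr1a (-0.47), Ncl (-0.32), Nop56 (0.13), Npm1 (-0.082), Odc1 (0.14) and Polr1b (-0.0075) did not pass. Both comparisons with the Myc allele use the same 3 libraries, of which replicate 2 had 0 at the Rxra junction.

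Over both batches of LT-HSC, with batch as a term, 0 of 38 members and 0% of all genes passed with limma. Of the members 10 were lower and 0 higher at an unadjusted p under 0.05, and of all 14323 genes 2899 were under that value. The lowest p-values were those of Noc4l (log2 change -0.44 ± 0.10 (SE), adjusted p = 0.0919) and Ncl (log2 change -0.40 ± 0.11 (SE), adjusted p = 0.0998), followed by Nolc1 (-0.47), Ddx21 (-0.50) and Polr1a (-0.43). Without replicate 6 of the libraries labelled knockout these 5 passed, all lower, where 1.5% of all genes were called lower and 3.34% higher. Their direction is that of scaled TPM, on which the members' median was -0.19, and it was -0.02 on deposited TPM, where the median of all genes was 0.14. Within batch 1 the log2 change of Ncl was -0.45 and within batch 2 -0.34, and those of Polr1a were -0.48 and -0.37. For Odc1 the values in batch 1 and batch 2 were -0.79 and -0.021, for Nop56 -0.61 and 0.20, and for Ppan -0.60 and 0.38. In the test of that difference, batch 2 minus batch 1, 0 of 38 members passed, where 0.0698% of all genes did in each direction and 0.14% in either, and 6 were above 0 at an unadjusted p under 0.05. The sign of this difference depends on the scale: 35 of 38 members were above 0 on scaled TPM, 31 with quantile normalization, 28 with size factors from genes at 20 TPM or more, 13 with the most abundant identifier left out and 2 on deposited TPM. The smallest p-values were those of Ppan (difference 0.98 ± 0.24, adjusted p = 0.194), Odc1 (0.77 ± 0.22, adjusted p = 0.272) and Nop56 (0.81 ± 0.26, adjusted p = 0.316). The control genotype changed with the batch, and so did the Rxra junction in knockouts. Its PSI was 0, 0.0127 and 0 in the libraries labelled knockout of batch 2, against 0 in each Cre control. In batch 1 it was 0.938 in the 1 LT-HSC knockout library with a value. Batch, control and the state of the receptors thus cannot be told apart.

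Myc RNA was set beside the members library by library. Myc (ENSMUSG00000022346, chromosome 15, 61985341 to 61990361 on GRCm38.p6) stood at 195, 244 and 286 scaled TPM in MPP knockouts, 146, 151 and 190.2 in MPP floxed controls, 88.5, 95.05 and 85.2 in LT-HSC knockouts and 125, 92.05 and 115 in LT-HSC floxed controls. On scaled TPM it was highest in MPP knockouts with no overlap with any other group, and LT-HSC knockouts were at the lower end of the LT-HSC floxed controls. On scaled and on deposited TPM Myc rose in MPP against LT-HSC in knockouts (log2 change 1.41 ± 0.17 (SE), adjusted p = 6.71e-05) and in floxed controls (log2 change 0.55 ± 0.17 (SE), adjusted p = 0.0290). It did not pass for knockout against floxed control in LT-HSC (log2 change -0.29 ± 0.17 (SE), adjusted p = 0.279, and log2 change 0.34 on deposited TPM) or in MPP (log2 change 0.56 ± 0.17 (SE), adjusted p = 0.184). In batch 2 Myc stood at 117, 92.2 and 69.7 scaled TPM in the libraries with the Myc allele, 142, 131 and 146 in those labelled knockout and 133, 133 and 127 in Cre controls. On scaled TPM libraries with the Myc allele lay below all others of batch 2, replicate 1 by the least, and the change did not pass (log2 change -0.61 ± 0.19 against those labelled knockout, adjusted p = 0.835, and -0.52 ± 0.19 against Cre controls, adjusted p = 0.523). On deposited TPM replicate 1 with the Myc allele, at 130 TPM, lay above replicates 4 and 5 labelled knockout (125 and 102 TPM). It lay below the Cre controls there (140 to 143 TPM).

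The mean of log2(scaled TPM + 1) over the 38 members was 5.23, 5.19 and 5.17 in MPP knockouts, 5.02, 5.12 and 5.26 in MPP floxed controls, 4.73, 4.65 and 4.47 in LT-HSC knockouts and 4.83, 4.80 and 5.24 in LT-HSC floxed controls. In batch 2 it was 5.07, 5.08 and 4.74 with the Myc allele, 5.07, 5.22 and 5.07 in libraries labelled knockout and 5.23, 5.06 and 5.06 in Cre controls. On scaled TPM LT-HSC knockouts of batch 1 thus had low Myc and the lowest members. On deposited TPM neither held against the floxed controls: Myc was 101, 139 and 117 TPM in LT-HSC knockouts and 123, 60.9 and 108 in LT-HSC floxed controls, and the members' mean was 4.90 to 5.16 in LT-HSC knockouts and 4.24 to 5.16 in LT-HSC floxed controls. On scaled TPM the orders parted elsewhere. MPP knockouts and MPP floxed controls overlapped in their members although their Myc did not overlap, which on deposited TPM it did (195 TPM in MPP knockout replicate 1 and 199.8 in MPP floxed control replicate 3). The Cre controls of batch 2, with less scaled Myc than any MPP library, had a library as high in its members as the MPP knockouts. With the Myc allele, the library with the lowest Myc, replicate 3, also had the lowest members of its group, and replicates 1 and 2 were alike in their members with unlike Myc. Summed mitochondrial genes were 17978.5, 91442 and 128636 scaled TPM in replicates 1 to 3 of that group. In Cre controls they were 18287 to 26247 and in libraries labelled knockout 28391 to 74380. The mean PSI of 9370 junctions between exon and intron was 0.0513, 0.141 and 0.140 with the Myc allele. The part of these traits was not tested. As libraries of a group share cell type and genotype, the pairs of Myc and member levels are a description and no test was made.

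**Figure D4:**
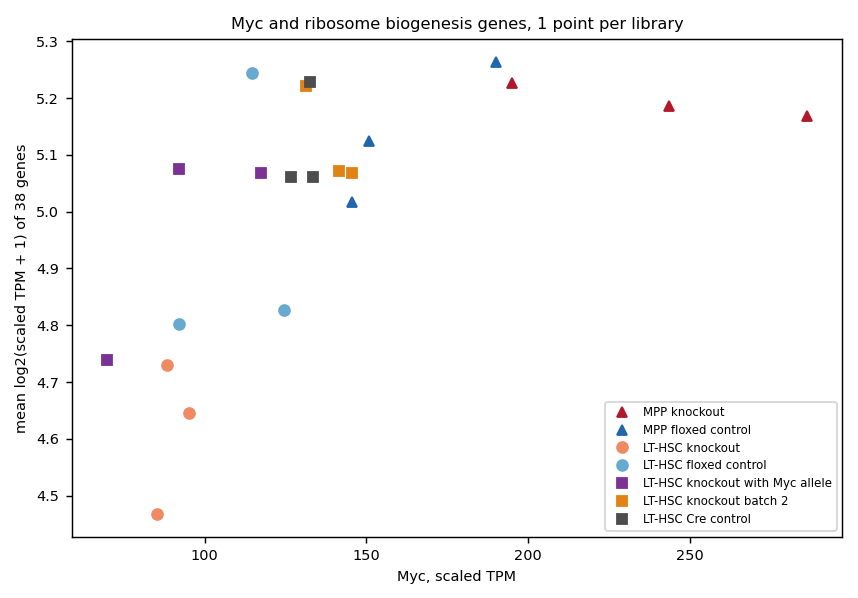
Myc (scaled TPM, horizontal axis) and the mean of log2(scaled TPM + 1) over the 38 genes (vertical axis), 1 point per library, with the shape for cell type and batch and the colour for the group. On this scale LT-HSC knockouts sit lowest, between 4.47 and 4.73 (4.90 to 5.16 on deposited TPM, where LT-HSC floxed controls are at 4.24 to 5.16), and MPP knockouts reach the highest Myc, 195 to 286 scaled TPM, at members' means of 5.17 to 5.23, a level that libraries with less Myc also reach.

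Other Myc family genes were read in the same libraries. Mycn, a paralog of Myc that binds the same motif, stood at 2.85, 3.28 and 2.94 scaled TPM in MPP knockouts, 3.79, 2.75 and 3.33 in MPP floxed controls, 19.9, 21.2 and 24.2 in LT-HSC knockouts and 18.1, 16.2 and 8.68 in LT-HSC floxed controls. It was lower in MPP than in LT-HSC among knockouts (log2 change -2.50 ± 0.21 (SE), adjusted p = 4.06e-06) and floxed controls (log2 change -1.79 ± 0.21 (SE), adjusted p = 6.64e-05), opposite to Myc. In batch 2 Mycn stood at 81.5, 28.3 and 31.5 scaled TPM in the libraries with the Myc allele, 36.4, 25.8 and 59.6 in those labelled knockout and 43.6, 48.01 and 31.5 in Cre controls, where the groups overlapped. Mycl, the gene named in the titles, did not exceed 0.866 scaled TPM in any library.

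A wider list of ribosome biogenesis genes was read beside the members, 103 of 104 being in the table. Between MPP and LT-HSC knockouts 23 of 103 rose and 0 fell, where 12.1% and 11.6% of all genes did, and the median log2 change was 0.34. The lowest adjusted p-values were those of Exosc9, a ring subunit of the RNA exosome (log2 change 0.62, adjusted p = 0.00255), and the small subunit factors Nop9 (0.72, 0.00333), Nol10 (0.63, 0.00443) and Wdr46 (1.00, 0.00573). Between floxed controls 4 rose, Nmd3, Utp14a, Exosc5 and Efl1, with log2 changes of 0.41 to 0.59, and 1 fell, Ubtf (-0.63), an activator of RNA polymerase I, where 12.1% of all genes were called higher and 12.2% lower. In LT-HSC, knockout against floxed control, 2 fell on scaled TPM, Gnl2 (-0.51, adjusted p = 0.0386) and Pwp2 (-0.55, adjusted p = 0.0431), and 0 rose, where 2.7% of all genes were called lower and 2.35% higher. The median log2 change of the wider list was -0.23 there and 0.04 in MPP. CACGTG was in the promoter window of 16 of 88 genes of the wider list (18.2%).

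Splicing of the members gave a second readout. The authors' table of splicing events held 254 events in 32 of the 39 member genes, Noc2l among them, of 46443 in all. Of the member events 224 (88.2%) were intron retention, a class that made up 59.3% of all events. With limma on PSI, and a difference of at least 0.1 asked for, 0 member events passed in any of 7 comparisons, where 0.486%, 0.305%, 0.166% and 0.199% of all events did in the 4 comparisons of batch 1 (MPP against LT-HSC in floxed controls and in knockouts, knockout against floxed control in LT-HSC and in MPP). In batch 2 it was 0.0389% for libraries labelled knockout against Cre controls, 0.0141% for the Myc allele against those labelled knockout and 0.0318% for the Myc allele against Cre controls. At an unadjusted p under 0.05 there were 34 of 239 member events for MPP against LT-HSC in floxed controls, 9 in knockouts, 31 for knockout against floxed control in LT-HSC and 18 in MPP. In batch 2, of 172, there were 4 for libraries labelled knockout against Cre controls, and 4 and 9 for libraries with the Myc allele against those labelled knockout and against Cre controls. The share of all events at that value was not computed, so these counts cannot be set against it. The member event with the lowest adjusted p was in Odc1, and its junction from the first to the second exon, at positions 17545168 and 17547096 of chromosome 12 as the table gives them, on mm10, was chosen after its values were seen. It had a PSI of 0.564, 0.344 and 0.286 in LT-HSC knockouts, against 0.692, 0.972 and 1 in LT-HSC floxed controls. The knockouts were below the floxed controls in every library, with a difference of -0.49 (adjusted p = 0.0986). In MPP the same junction had 0.526, 0.518 and 0.412 in knockouts, against 0.605, 0.542 and 0.588 in floxed controls, which did not overlap. In batch 2 it was 1, without a value and 0.132 in the libraries with the Myc allele, 1 in each library labelled knockout, and 0.537, 0.409 and 0.511 in Cre controls, so there the libraries labelled knockout lay above their controls. Of the 31 member events at an unadjusted p under 0.05 in LT-HSC of batch 1, 14 were in Odc1, and among these 8 of 8 exon-intron junctions were higher and 6 of 6 exon-exon junctions lower in knockouts. These events share reads and are not independent. A junction of Noc3l, chosen likewise, had 0.657, 0.479 and 0.571 in LT-HSC knockouts, against 1 in each LT-HSC floxed control (adjusted p = 0.113). Without LT-HSC knockout replicate 1, 10 member events passed in LT-HSC, where 1.03% of all events did, and without floxed control replicate 1 there was 1, where 0.158% of all events did. Intron reads as a whole moved with these groups: the mean PSI of 9370 junctions between exon and intron was 0.129, 0.161 and 0.169 in LT-HSC knockouts, against 0.104, 0.110 and 0.128 in LT-HSC floxed controls. Their part in the junctions of Odc1 and Noc3l was not tested.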

How the data were processed

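RNA of 21 libraries was analysed as the authors deposited it. Per the labels' protocols, the Ovation RNA-seq v2 kit amplified 5 ng of RNA for each library, Nextera XT followed, and sequencing was paired on a NovaSeq. Expression values are TPM deposited by the authors per Ensembl gene. Per the submitters' processing notes kallisto and STAR 2.6 were used with mm10, in which step and with which annotation is not given in the sources used here. TPM keep no depth, so no counting interval is given. Splicing values are fractions from 0 to 1 (PSI) deposited by the authors, and the caller is not given in the sources used here.

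Of 28987 identifiers 27458 (94.73%) had a symbol. TPM were divided by median-of-ratios size factors over 14964 genes above 0 in all libraries. A fit took the genes that reached 1 scaled TPM in 3 or more of its libraries, and limma 3.58.1 (R 4.3.3) was run with a trend on log2(scaled TPM + 1), which understates fold changes of low genes. P-values were adjusted over every gene in the fit by Benjamini-Hochberg, with a threshold of 0.05, and libraries of a batch shared 1 fit. Counts at an unadjusted p under 0.05 stand without the share of all genes or events at that value, except where it is named. PSI was tested likewise for events with a value in every library of the fit, with a difference of at least 0.1. Only the fits of LT-HSC knockouts, or libraries labelled so, against the controls of their batch were tested on simulated data. The noise there was drawn independently for each gene and library, so it cannot speak for traits that a whole library shares. As nothing says that the animals of different libraries, pooled or not, were independent, p-values measure the spread between these libraries.

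MPP and LT-HSC libraries of the same number share an animal code in the labels and were taken as paired, and the values given are those without the pairing unless a block is named. The correlation of their deviations from the group means was 0.158 to 0.543 in knockouts and 0.0513 to 0.0825 in floxed controls. Members and lists were chosen with earlier results of these data known. In each comparison the text names Ncl, Npm1, Fbl, Nop56, Polr1a, Polr1b, Odc1, Srm and Myc, up to 10 called members by adjusted p, and the 3 members with the largest and the 3 with the smallest log2 change (for differences between effects, the 3 with the smallest p). Other members are named where a count is broken down. Alternatives were other scalings, pseudocounts of 0.1 and 5, other filters, the groups compared alone, the replicate number as a block, and leaving out each library. Promoters and positions are from RefSeq on GRCm38.p6. Figures used Python 3.11.15 and matplotlib 3.10.9.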

Additional observations from a re-analysis of the deposited data

How the results depend on the processing

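The count of members past the threshold depended on scale and on single libraries. For MPP against LT-HSC floxed controls it was 0, and it was 2 on deposited TPM, 4 with the replicate block and 0 to 8 with 1 library left out. For MPP against LT-HSC knockouts it was 24, and it was 1 on deposited TPM, 15 with the most abundant identifier left out, 15 with size factors from genes at 20 TPM or more (chosen after seeing the data), 28 with the replicate block and 11 to 25 with 1 library left out. For knockout against floxed control LT-HSC it was 6 lower, and it was 4 higher on deposited TPM, 1 lower with the most abundant identifier left out, 1 with size factors from genes at 20 TPM or more, 2 without a filter on low values, 0 with only the groups compared, 5 with the replicate block and 0 to 11 with 1 library left out. The log2 change there was 0.11 for Polr1a and 0.018 for Ppan on deposited TPM, where the median of all genes was 0.52, and the cause of the other shifts was not tested. In the main fits of these comparisons, in the order named, 24.3%, 23.7% and 5.06% of all genes were called in either direction. Counts of all genes called on the other scales are given above with the scales. No share of all genes is given for the fits without a filter, of the groups alone or, in LT-HSC, with the replicate block. Leaving out 1 library gave 0 to 3 for the Myc allele against Cre controls, 0 to 5 over both batches and 0 in the other expression comparisons. For member splicing events it gave 0 to 10 for knockout against floxed control LT-HSC, 0 to 3 for MPP against LT-HSC knockouts, for knockout against floxed control MPP and for the Myc allele against Cre controls, and 0 in the rest. The replicate block changed no other count of members. Knockouts and controls with the same number did not deviate together (correlations of -0.143 to 0.283), so those numbers are names only. No paired analysis was possible for the libraries with the Myc allele because they share no numbers with the other groups of batch 2. Of the values of named genes under the alternatives, 2465 stayed on their side of the threshold, 77 lost the call, 26 gained one and 2 called values reversed. Of the 2465, 100 that were called in neither fit changed sign, 31 of them on deposited TPM. Depth is unknown and limits the precision of low members such as Rrp12 to an unknown degree.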
